A study of Mus musculus with 6 samples.

Results

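The Frizzled receptor family was followed in freshly isolated mouse oligodendrocyte precursor cells (OPCs), the glial progenitors that give rise to myelinating oligodendrocytes. Its members were taken by name, as the genes Fzd1 to Fzd10, and all 10 were among the 18211 genes measured. The 2 genotypes, both on a C57BL/6 background, were compared at postnatal day (P)7. DISC1-Δ3 mice (NG2-CreERTM:DISC1 exon3 fl/+) carry 1 floxed allele of DISC1 exon 3, which tamoxifen removes from cells with an active NG2 promoter, and gave 3 libraries. Wildtype mice without CreERT also gave 3 libraries. Both genotypes received tamoxifen by gavage on 4 consecutive days, from P4 to P7. The floxed allele and the Cre transgene therefore differ together between the groups, and their effects cannot be told apart. The promoter that drives Cre is that of NG2 (Cspg4), a proteoglycan made by OPCs and also by pericytes. The cells were purified by immunopanning for PDGFRα. The sources used here do not say whether each library came from 1 animal or from a pool, so the p-values measure the spread between these libraries, which may be technical.

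Frizzled proteins are cell surface receptors for the secreted Wnt ligands, which they bind with a cysteine-rich outer domain. With the co-receptors LRP5 and LRP6 they pass the signal through Dishevelled to β-catenin, which acts with TCF/LEF factors on target genes; with other partners they act in planar cell polarity. Receptor at the surface is limited by the ubiquitin ligases RNF43 and ZNRF3, which R-spondins and LGR receptors counteract. In the oligodendrocyte lineage, Wnt signaling is known for holding precursors back from differentiation.

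Library depth ranged from 13716631 to 16417232 reads assigned to genes. DISC1-Δ3 replicate 3 stood apart from replicates 1 and 2 of its group, with chi-square values per degree of freedom of 5.07 and 4.82 against 2.60 between those 2 libraries. The wildtype pairs lay between 1.79 and 2.85. Disc1 itself, which encodes the scaffold protein that was targeted, was measured at 3.51, 3.34 and 3.81 RPKM (reads per kilobase of transcript, scaled by library total) in wildtype libraries and at 2.86, 2.44 and 2.85 RPKM in DISC1-Δ3 libraries. Its log2 fold change was -0.45 ± 0.088 (SE, adjusted p = 0.000528, edgeR). Gene-level counts do not separate exon 3 from the rest of the gene. Cspg4, whose promoter drives Cre, was higher, at 15.8 ± 1.38 RPKM in wildtype and 22.95 ± 1.41 RPKM in DISC1-Δ3 libraries (mean ± SD). Its log2 fold change was 0.46 ± 0.062 (SE, adjusted p = 1.16e-05, edgeR), and it is among the OPC markers summed next. The summed RPKM of 8 OPC markers was 483 to 502 in wildtype libraries and 588 to 605 in DISC1-Δ3 libraries. The summed RPKM of 8 microglia markers was far above it, at 11229 to 11458 and 7899 to 8197. Transcripts of microglia were thus abundant in libraries labelled as OPCs. Markers of myelinating oligodendrocytes (2442 to 2474 and 2256 to 2288) and of astrocytes (1965 to 2005 and 1888 to 1906) also summed above the OPC markers. Markers of committed precursors, endothelium, pericytes and neurons summed below them. Sums over different markers do not measure the share of a cell type. In such bulk libraries, fewer cells of a type and less RNA per cell cannot be told apart.

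In the GENCODE M21 annotation of GRCm38, 6 members (Fzd1, Fzd2, Fzd7, Fzd8, Fzd9 and Fzd10) are single-exon genes, and none of their 50-base words occurs in a transcript of any other gene. Fzd1 lies on chr5:4753839-4758035 (minus strand), Fzd10 on chr5:128600844-128604093 (plus strand), Fzd2 on chr11:102604396-102608058 (plus strand) and Fzd7 on chr1:59482424-59486955 (plus strand). Fzd4 has 2 exons on chr7:89404355-89413134 (plus strand). The reads were 50 bases long, and 0 words of that length were shared between any 2 family members. All 60 count values of the family were whole numbers, so none held a read divided between genes. Fzd5 shared 16.4% of its 50-base words with the antisense gene Gm38058, and Fzd6 shared 2.12% with the antisense gene Gm26704; for Fzd3 and Fzd4 the share was 0.0941% and 0.150%. Fzd3 is overlapped by Gm27263 on its own strand and by Gm9086 on the opposite strand. None of these 4 partners has a row among the genes measured, and whether strand was used in counting is not given in the sources used here, so the values of Fzd3, Fzd5 and Fzd6 are less certain.

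The closest relatives in the family are Fzd1, Fzd2 and Fzd7, and their longest shared coding stretches are shown because their levels went different ways between the genotypes. Capitals mark the stretch that both genes of a pair share, and the lower-case bases beside it hold the first differences. All lines are coding sequence of GRCm38, read 5′ to 3′ on the strand of the gene. The first pair shares 47 bases, Fzd1 at chr5:4756323-4756385 (minus strand) and Fzd2 at chr11:102605732-102605794 (plus strand).
Fzd1: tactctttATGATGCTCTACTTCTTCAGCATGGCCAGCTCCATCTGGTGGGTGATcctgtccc
Fzd2: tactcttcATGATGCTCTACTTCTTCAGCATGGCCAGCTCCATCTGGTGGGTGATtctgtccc
The second pair also shares 47 bases, Fzd1 at chr5:4756956-4757018 (minus strand) and Fzd7 at chr1:59483336-59483398 (plus strand).
Fzd1: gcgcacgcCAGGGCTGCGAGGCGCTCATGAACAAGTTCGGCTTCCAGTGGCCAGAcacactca
Fzd7: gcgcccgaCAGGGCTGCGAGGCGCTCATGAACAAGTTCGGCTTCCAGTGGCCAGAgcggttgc
The third pair shares 38 bases, Fzd2 at chr11:102606056-102606109 (plus strand) and Fzd7 at chr1:59484290-59484343 (plus strand).
Fzd2: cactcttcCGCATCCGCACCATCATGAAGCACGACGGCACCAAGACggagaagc
Fzd7: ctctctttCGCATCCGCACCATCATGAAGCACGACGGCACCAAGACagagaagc
Each capital run is shorter than a read, so every read that covers one also covers a base where the genes differ.

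All 10 receptors were expressed in wildtype OPC preparations, over a range of RPKM from 1.61 ± 0.13 to 17.9 ± 1.39 (mean ± SD, n = 3). Fzd2 was the highest, followed by Fzd9 at 14.3 ± 0.26 RPKM and Fzd10 at 10.2 ± 0.93 RPKM. Fzd7, Fzd1, Fzd8, Fzd6, Fzd3, Fzd4 and Fzd5 followed in that order. Only the neighbours Fzd6 and Fzd3 had overlapping ranges over the 3 wildtype libraries, so the other steps in the order were larger than the spread. Fzd2 ranked above 76.6% of the genes measured and Fzd5 above 36.2%. In DISC1-Δ3 libraries Fzd10 was the highest member, at 32.7 ± 2.29 RPKM, and its lowest library was above every library of Fzd2 and Fzd9. Fzd1 moved from the fifth to the fourth place. There the ranges of Fzd2 and Fzd9, of Fzd7 and Fzd8, and of Fzd5 and Fzd4 overlapped.

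**Figure D1:**
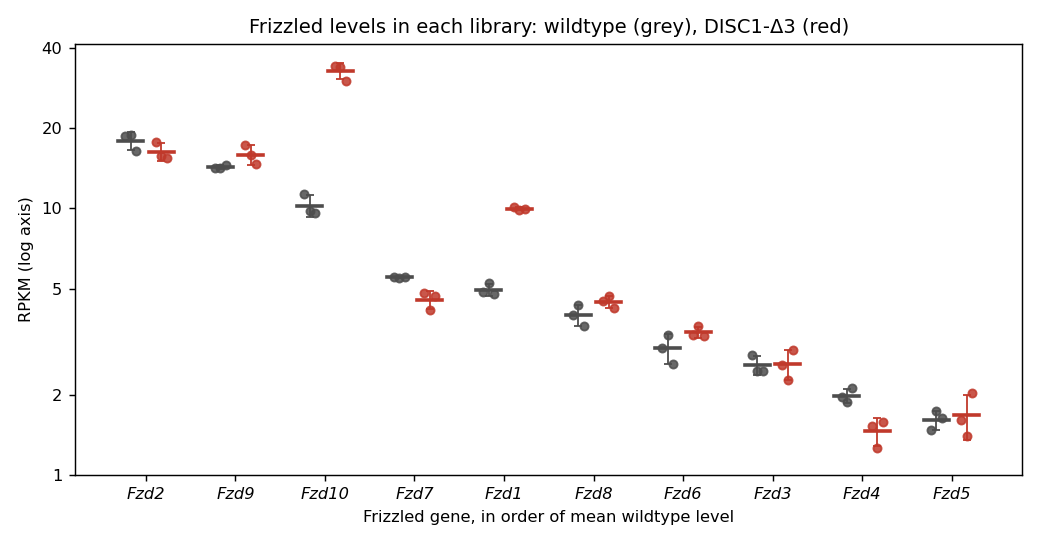
RPKM of each Frizzled gene on a log axis, in 3 wildtype (grey) and 3 DISC1-Δ3 (red) libraries; points are libraries, bars are group means and whiskers are SD. Fzd10 goes from 10.2 to 32.7 RPKM and Fzd1 from 4.95 to 9.97 RPKM, while the groups of Fzd2, Fzd3, Fzd5, Fzd6 and Fzd8 overlap.

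The genotypes were compared to ask how deletion of DISC1 exon 3 in OPCs changes their transcriptome. Of the 10 receptors, 5 passed an adjusted p of 0.05 in edgeR's quasi-likelihood test, 2 higher and 3 lower in DISC1-Δ3 libraries. Over all 13792 genes tested, 39.9% passed, 20.4% higher and 19.5% lower, so the family's count was near that background. The count was 4, without Fzd2, with scaling by library totals, where 69.1% of the calls over all genes were higher, against 51.1% with TMM scaling between libraries. Their median log2 fold change was 0.023, beside 0.0075 over all genes tested. The group ranges of RPKM did not overlap for 5 receptors, 3 higher and 2 lower, where 52% of all tested genes did not overlap, 35.9% higher and 16.1% lower. Fzd10 and Fzd1 stood out by the size of their rise, described next with the share of genes that rose as much. No such share was taken for the receptors that fell.

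Fzd10, a receptor of the β-catenin branch that is most closely related to Fzd9, rose the most. Its RPKM was 11.31, 9.79 and 9.61 in wildtype libraries and 34.15, 33.95 and 30.08 in DISC1-Δ3 libraries. The lowest DISC1-Δ3 library thus lay well above the highest wildtype library. The values rest on 440, 458 and 447 reads against 1384, 1559 and 1377 reads. The log2 fold change was 1.60 ± 0.076 (SE, 95% interval 1.44 to 1.76, adjusted p = 1.64e-11, edgeR), a 3.03-fold increase. Leaving out each library in turn kept it between 1.55 and 1.67. Among all tested genes, 196 (1.42%) were called higher with a change of at least this size.

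Fzd1, which acts with Fzd2 in closure of the palate and the heart septum, was the other receptor that rose. Its RPKM was 4.86, 5.25 and 4.75 in wildtype libraries and 10.1, 9.83 and 9.97 in DISC1-Δ3 libraries. Every DISC1-Δ3 library was well above every wildtype library, with little spread in either group. The log2 fold change was 0.93 ± 0.073 (SE, 95% interval 0.77 to 1.08, adjusted p = 1.64e-08, edgeR), a 1.90-fold increase. It stayed between 0.90 and 0.97 without any single library, and 421 tested genes (3.05%) were called higher by at least as much.

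Fzd4, the receptor for Norrin and a known regulator of the blood vessels of retina and brain, fell the most of the 3 lower receptors. Its RPKM was 1.96, 1.87 and 2.11 in wildtype libraries and 1.53, 1.26 and 1.58 in DISC1-Δ3 libraries. All DISC1-Δ3 libraries were below all wildtype libraries. It is among the least read members, with 95, 109 and 122 wildtype reads and 77, 72 and 90 DISC1-Δ3 reads. The change on the log2 scale was -0.53 ± 0.15 (SE, 95% interval -0.84 to -0.22, adjusted p = 0.00850, edgeR). It was -0.28 with limma on log2(RPKM + 1), -0.42 with limma on log2(RPKM + 0.1) and -0.45 with edgeR on library totals. Leaving out 1 library gave values from -0.59 to -0.45, with adjusted p up to 0.0443 (edgeR).

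Fzd7, a receptor known from stem cells of the intestine, was also lower. Its RPKM was 5.53, 5.48 and 5.5 in wildtype libraries and 4.8, 4.14 and 4.7 in DISC1-Δ3 libraries. The wildtype libraries were almost equal and all lay above the DISC1-Δ3 libraries. The log2 fold change was -0.36 ± 0.083 (SE, 95% interval -0.53 to -0.18, adjusted p = 0.00212, edgeR), and it lay between -0.42 and -0.32 without any single library. With limma on log2(RPKM + 1) it was -0.23 (adjusted p = 0.0367).

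Fzd2, the highest receptor of wildtype libraries, had the smallest change that passed the test. Its RPKM was 18.62, 18.87 and 16.34 in wildtype libraries and 17.73, 15.77 and 15.39 in DISC1-Δ3 libraries. The groups overlapped, since wildtype replicate 3 was below DISC1-Δ3 replicate 1. The log2 fold change was -0.22 ± 0.072 (SE, 95% interval -0.37 to -0.07, adjusted p = 0.0212, edgeR). The call was lost without wildtype replicate 1 (-0.20, adjusted p = 0.0881, edgeR) or wildtype replicate 2 (-0.18, adjusted p = 0.119, edgeR). It was also lost with scaling by library totals (-0.14, adjusted p = 0.132, edgeR). Over all alternatives the change lay between -0.30 and -0.13, and Fzd2 was the one member of the 5 whose call was lost.

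**Figure D2:**
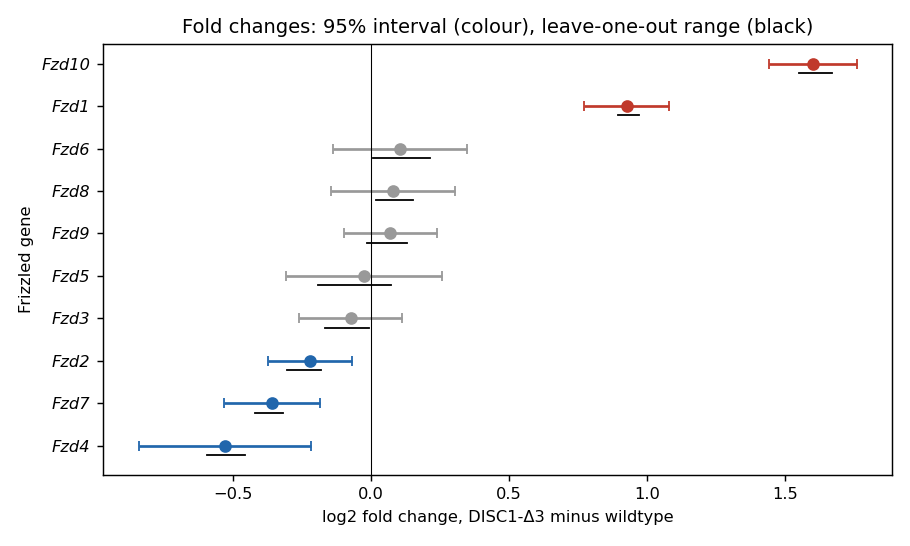
Log2 fold change of each Frizzled gene, DISC1-Δ3 minus wildtype, as a point with its 95% interval in colour (red higher, blue lower, grey not past the test) and the range over the fits without 1 library in black. Fzd10 (1.60) and Fzd1 (0.93) lie far to the right of the other 8, which span -0.53 to 0.11.

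The other 5 receptors did not pass the test, and their intervals show what size of change the data still allow. Fzd9, a receptor known from the hippocampus, was measured at 14.18, 14.12 and 14.59 RPKM in wildtype libraries and at 17.3, 15.81 and 14.61 RPKM in DISC1-Δ3 libraries. Its ranges did not overlap, but by only the last digit, and the log2 fold change on scaled counts was 0.07 (95% interval -0.10 to 0.24). Fzd8, which can pair with LRP6 in binding Wnts, went from 3.98 ± 0.36 to 4.46 ± 0.25 RPKM, with a log2 fold change of 0.08 (interval -0.14 to 0.31). Fzd5, its nearest relative and a receptor needed in eye and gut, was at 1.61 ± 0.13 and 1.68 ± 0.32 RPKM, with a log2 fold change of -0.02 (interval -0.31 to 0.26). Both receptors best known from planar cell polarity were in this group too. Fzd3, which guides growing axons, was at 2.58 ± 0.21 and 2.60 ± 0.33 RPKM, with a log2 fold change of -0.07 (interval -0.26 to 0.11). Fzd6, which orients hair follicles, was at 2.99 ± 0.38 and 3.43 ± 0.17 RPKM, with a log2 fold change of 0.11 (interval -0.14 to 0.35).

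The make-up of the Frizzled pool differed between the genotypes, mainly through Fzd10. The RPKM of all 10 genes summed to 67.71, 67.28 and 63.23 in wildtype libraries and to 97.62, 92.75 and 88.81 in DISC1-Δ3 libraries, a ratio of means of 1.41. Without Fzd1 and Fzd10, left out because they were called higher, the other 8 summed to 50.9 ± 1.78 and 50.4 ± 2.60 RPKM. These sums differ by less than the spread, but RPKM leaves out the TMM scaling. Its factors (0.970 to 0.974 in wildtype and 1.02 to 1.04 in DISC1-Δ3 libraries) would lower the DISC1-Δ3 sum against the wildtype sum. With that scaling, 3 of the 8 were called lower. Fzd10 made up 15.5% ± 1.10 of the pool in wildtype libraries and 35.2% ± 1.37 in DISC1-Δ3 libraries. The share of Fzd2 went from 27.1% to 17.5%, that of Fzd9 from 21.7% to 17.1% and that of Fzd7 from 8.34% to 4.89%. Shares sum to a whole, so a member's share can fall while its level does not. The ratio of Fzd10 to Fzd2 in RPKM, which needs no scaling between libraries, was 0.57 ± 0.047 in wildtype and 2.01 ± 0.12 in DISC1-Δ3 libraries. The ratio of Fzd1 to Fzd7 was 0.90 ± 0.051 and 2.20 ± 0.15. A ratio within a library shows unequal change of its 2 genes and does not say which one moved. Each pair sets a gene called higher over a gene called lower in these same libraries, so the ratios are no independent evidence.

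**Figure D3:**
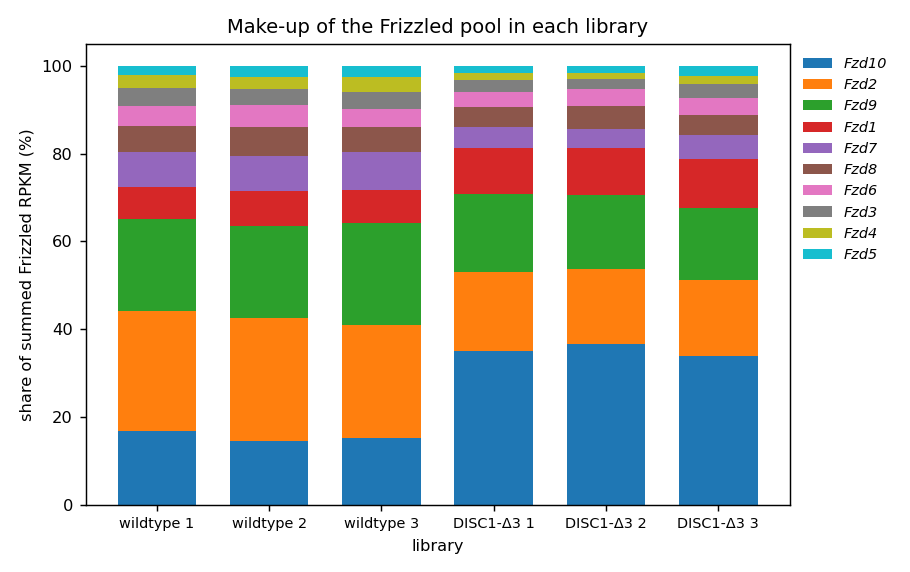
Share of each Frizzled gene in the summed RPKM of all 10, in percent, stacked for each of the 6 libraries. The Fzd10 share at the bottom is 14.6% to 16.7% in wildtype libraries and 33.9% to 36.6% in DISC1-Δ3 libraries.

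The closest relatives in sequence included genes that went opposite ways. Coding sequences of Fzd1 and Fzd2 were identical at 81.5% of aligned bases, the highest of all 45 pairs, and Fzd1 rose while Fzd2 was lower. Fzd7 was identical to Fzd2 at 78.5% and to Fzd1 at 77.9%, and it fell. Fzd9 and Fzd10 were identical at 70.8%, and only Fzd10 passed the test. Fzd5 and Fzd8, at 76.3%, both did not pass it. Directions within these pairs are given as values, with no test of a relation between sequence and change.

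**Figure D4:**
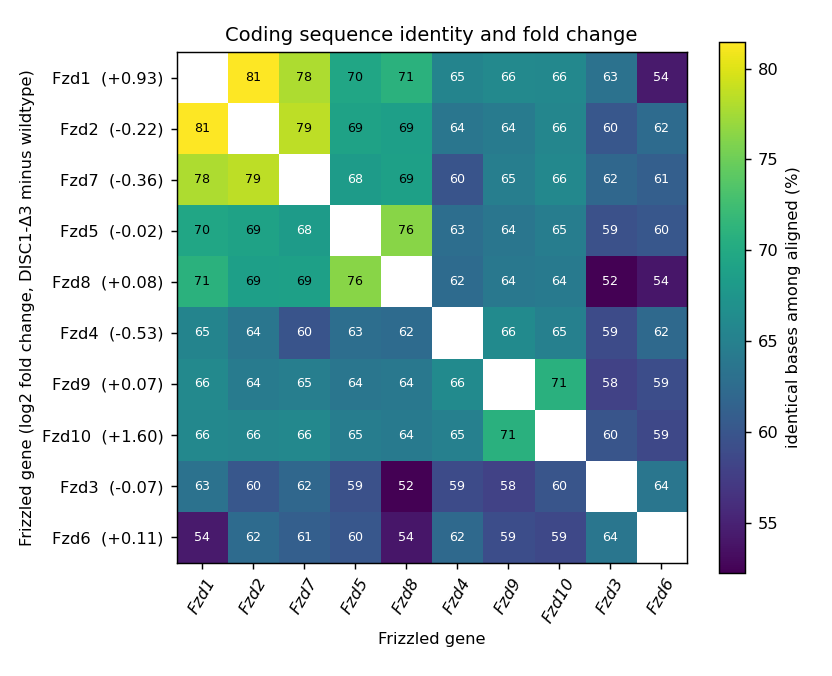
Identical bases among aligned coding bases, in percent, for each pair of Frizzled genes, with each gene's log2 fold change beside its name. The bright block of Fzd1, Fzd2 and Fzd7 (77.9% to 81.5%) holds genes with log2 fold changes of 0.93, -0.22 and -0.36.

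Promoters were read because feedback targets of β-catenin rose along with Fzd1 and Fzd10 (values given further on), and the TCF/LEF partners of β-catenin recognise a short core, CTTTG, on either strand. RefSeq promoter entries (GRCm38.p6) were at hand for Fzd1, Fzd4, Fzd5, Fzd7, Fzd9 and Fzd10. In the 250 bases before the start, the core occurred 2 times in Fzd1, 1 time in Fzd7 and in Fzd10, and 0 times in Fzd4, Fzd5 and Fzd9. All 250 bases of Fzd10 and 183 of Fzd9 lie inside the gene as GENCODE gives it, as do 11 of Fzd4 and 1 of Fzd5. The windows of Fzd1 and Fzd7 stop short of the GENCODE starts (chr5:4758035 and chr1:59482424). The counts of the core thus depend on the start used. The core occurs in 48.6% of 32851 promoters of this length, so its presence sets none of them apart. The longer forms CTTTGAT and CTTTGAA, found in 3.21% and 4.46% of promoters, occurred in 0 of the 6. The promoters of the higher Fzd1 (chr5:4758217-4758466, minus strand) and the lower Fzd7 (chr1:59481897-59482146, plus strand) are printed on the strand of the gene, with the core in capitals.
Fzd1: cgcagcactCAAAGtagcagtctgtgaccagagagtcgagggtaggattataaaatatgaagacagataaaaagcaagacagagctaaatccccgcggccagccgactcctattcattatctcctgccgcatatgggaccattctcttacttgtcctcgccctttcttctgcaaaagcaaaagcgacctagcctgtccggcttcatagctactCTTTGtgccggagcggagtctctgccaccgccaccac
Fzd7: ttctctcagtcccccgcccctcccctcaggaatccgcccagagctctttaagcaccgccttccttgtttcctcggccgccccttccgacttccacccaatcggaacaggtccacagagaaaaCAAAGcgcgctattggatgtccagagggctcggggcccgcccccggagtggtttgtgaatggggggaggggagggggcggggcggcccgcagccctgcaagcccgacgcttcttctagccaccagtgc
For Fzd10 the stretch around its core is shown (chr5:128600958-128600982, plus strand); it lies inside the longer transcript that GENCODE gives.
Fzd10: aagaagaggcCAAAGtttgcgcgct
A match is a run of letters and not a binding site, and the core was present in a promoter of a gene that rose and in one of a gene that fell.

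The genes that work directly with Frizzled receptors were read from the same fit. Each count below stands beside the shares over all genes tested, 20.4% higher and 19.5% lower. Of 10 co-receptor genes, 8 were tested, of which 2 were higher, 2 lower and 4 did not pass, with a median log2 fold change of 0.12. These co-receptor counts were near the shares over all genes. Lrp5, the co-receptor of the β-catenin branch, fell from 33.4 ± 1.50 to 26.6 ± 1.26 RPKM (log2 fold change -0.41, adjusted p = 5.73e-06, edgeR). Its relative Lrp6 was lower by a log2 fold change of -0.33 (adjusted p = 0.0182, edgeR), with overlapping ranges, and was called in 8 of 15 alternatives. Its call was lost with library totals (adjusted p = 0.0859, edgeR), RPKM sums (adjusted p = 0.109, edgeR) and both limma fits (adjusted p = 0.157). It was also lost without wildtype replicate 1, wildtype replicate 2 or DISC1-Δ3 replicate 1 (adjusted p = 0.0775, 0.0739 and 0.0576, edgeR), and without DISC1-Δ3 replicate 3 the change was -0.51. Ptk7, a co-receptor of planar cell polarity, rose from 11.0 ± 1.30 to 17.8 ± 0.58 RPKM (0.63, adjusted p = 2.24e-06, edgeR). Adgra2 (Gpr124), which presents WNT7 ligands to Frizzled, rose by 0.52 (adjusted p = 0.000184, edgeR). The receptor kinase homologue Ryk missed the threshold narrowly, at 21.04 ± 0.80 and 24.8 ± 1.51 RPKM (adjusted p = 0.0505, edgeR), and passed it with library totals (adjusted p = 0.00432, edgeR). Tspan12, the FZD4 partner in Norrin signaling, was at 10.5 ± 1.13 and 10.3 ± 0.29 RPKM.

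The ligands included genes with far larger changes than any receptor. Of 20 ligand genes 19 were measured and 11 tested, of which 6 were higher, 0 lower and 5 not past the test, with a median of 0.28. Wnt6, Wnt10a and Wnt16 reached the level needed for testing (0.5 RPKM in 3 libraries) only with DISC1-Δ3 libraries counted. The count and the median thus rest in part on genes that were tested because they are high there. Wnt6 was at 0.42 ± 0.15 RPKM in wildtype and at 27.2 ± 2.08 RPKM in DISC1-Δ3 libraries, a log2 fold change of 5.95 ± 0.15 (SE, adjusted p = 2.71e-15, edgeR). Wnt10a had 4, 4 and 2 reads in wildtype libraries and 183, 257 and 204 reads in DISC1-Δ3 libraries (5.87, adjusted p = 6.28e-12, edgeR). Wnt16 had 0, 1 and 1 reads and then 199, 171 and 201, a depth-scaled read ratio of 286 with an exact 95% interval of 78.7 to 2364, which covers counting error only. Wnt5a, the main ligand of the branch without β-catenin, rose from 2.46 ± 0.082 to 6.64 ± 0.28 RPKM (1.35, adjusted p = 1.71e-09, edgeR). Ndp, which encodes the FZD4 ligand Norrin, rose from 8.91 ± 0.13 to 11.5 ± 0.63 RPKM (0.28, adjusted p = 0.0184, edgeR) while Fzd4 itself was lower. Its call was lost with DESeq2 (adjusted p = 0.0609) and without wildtype replicate 3 or DISC1-Δ3 replicate 1 (adjusted p = 0.0627 and 0.105, edgeR). The last of the 6 was Wnt5b (0.68, adjusted p = 0.0198, edgeR), named to complete the count after its value was seen; it lost its call with DESeq2 (adjusted p = 0.0813) and without wildtype replicate 2 or DISC1-Δ3 replicate 2 (adjusted p = 0.0977 and 0.0640, edgeR). The ligands with the highest wildtype levels did not pass, Wnt7b at 28.5 ± 2.52 and 29.5 ± 1.90 RPKM and Wnt7a at 11.5 ± 0.62 and 13.5 ± 0.16 RPKM, although Wnt7a passed with library totals (0.22, adjusted p = 0.0143, edgeR).

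Genes that set the amount of Frizzled at the cell surface moved in both directions. Of 12 such genes 9 were tested, with 5 higher, 2 lower and 2 not past the test, and a median of 0.49. Rnf43 and Rspo4 reached the level needed for testing only with DISC1-Δ3 libraries counted, so this count and median rest in part on that. Rnf43, the ubiquitin ligase that removes Frizzled from the surface, was at 0.47, 0.54 and 0.34 RPKM in wildtype and at 6.08, 6.87 and 7.1 RPKM in DISC1-Δ3 libraries (log2 fold change 3.77 ± 0.14, adjusted p = 6.67e-13, edgeR). Its partner Znrf3 rose by 0.54 (adjusted p = 0.00188, edgeR). Both were thus higher together with R-spondins that counteract them. Rspo3 rose from 0.72 ± 0.16 to 3.43 ± 0.20 RPKM (2.17, adjusted p = 5.01e-08, edgeR). Rspo4 had 1, 0 and 2 reads against 91, 142 and 105, a depth-scaled read ratio of 113 (exact 95% counting interval 38.2 to 549). Among the R-spondin receptors, Lgr6 rose by 0.49 (adjusted p = 4.84e-05, edgeR) and Lgr4 was lower by a log2 fold change of -0.43 (adjusted p = 0.00366, edgeR), both named after their values were seen. Usp8, a deubiquitinase that returns Frizzled to the surface, was lower by a log2 fold change of -0.20 (adjusted p = 0.00786, edgeR), with overlapping ranges; it was called in 10 of 15 alternatives. Without wildtype replicate 3 the adjusted p was 0.0525 and with library totals (-0.12) it was 0.0960 (edgeR).

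Proteins that carry a Frizzled-like cysteine-rich domain without being Wnt receptors were counted apart. Of 9 genes 7 were tested, with 2 higher, 0 lower and a median of -0.03. Frzb, a secreted Wnt antagonist, rose from 1.09 ± 0.18 to 9.86 ± 0.20 RPKM (log2 fold change 3.08 ± 0.12, adjusted p = 1.33e-12, edgeR). Sfrp2, another secreted antagonist, rose from 2.66 ± 0.25 to 5.50 ± 0.90 RPKM (0.95, adjusted p = 0.000100, edgeR). Sfrp1 was the most abundant secreted member, at 19.8 ± 0.69 and 20.5 ± 0.53 RPKM, and did not pass. Smo, the Hedgehog pathway member of the same receptor class, was at 34.5 ± 1.82 and 34.9 ± 0.74 RPKM, with a log2 fold change of -0.048 ± 0.051 (SE, 95% interval -0.16 to 0.06) whose sign changed with the scaling. The ratio of Fzd10 to Smo in RPKM was 0.30 ± 0.023 and 0.94 ± 0.059.

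Downstream of the receptors, all 3 Dishevelled genes were higher by small amounts. Dvl3 rose from 21.7 ± 1.12 to 28.3 ± 0.18 RPKM (log2 fold change 0.26, adjusted p = 0.000341, edgeR), Dvl2 by 0.24 (adjusted p = 0.0122, edgeR) and Dvl1 by 0.16 (adjusted p = 0.0329, edgeR). The direction of all 3 held under every alternative. The call of Dvl1 was lost with DESeq2 and without any 1 of the 6 libraries (adjusted p = 0.0547 to 0.136, edgeR), and that of Dvl2 without DISC1-Δ3 replicate 1 (adjusted p = 0.0755, edgeR). Of 8 planar polarity partners, 2 were higher, 1 lower and 5 did not pass, with a median of -0.0044. These counts were near the shares over all genes tested. Celsr3 rose by 0.49 and Prickle2 by 0.36, while Celsr1 was lower by a log2 fold change of -0.27 that was not called with RPKM sums (-0.18) or limma (-0.14 and -0.17 at the pseudocounts of 1 and 0.1). The most abundant of them, Vangl2 and Celsr2, were at 12.03 ± 0.97 and 10.6 ± 0.44 RPKM in wildtype libraries and at 12.7 ± 0.73 and 11.1 ± 0.27 RPKM in DISC1-Δ3 libraries. Vangl2 passed the test with library totals (0.19, adjusted p = 0.0297, edgeR) and RPKM sums (0.19, adjusted p = 0.0351, edgeR). All 10 genes listed as feedback targets of β-catenin, Bmp4 among them, were higher, with a median of 2.43. Their direction was known from these same libraries before the list was read here, so it is no independent evidence. Notum, which inactivates Wnts by removing their lipid, rose from 5.97 ± 0.17 to 200.3 ± 2.33 RPKM, Sp5 from 1.25 ± 0.21 to 16.1 ± 1.67 RPKM and Nkd1 from 9.91 ± 0.16 to 107 ± 1.08 RPKM. Axin2 rose from 4.83 ± 0.25 to 25.5 ± 2.00 RPKM and Apcdd1 from 44.6 ± 0.82 to 174 ± 5.28 RPKM. Dkk1 had 0, 2 and 0 reads against 20, 19 and 22, a depth-scaled read ratio of 30.5 (exact 95% counting interval 8.09 to 258). Dkk1 was tested only because DISC1-Δ3 libraries reached the level needed. The lower ends of the intervals of Wnt16, Rspo4 and Dkk1 lie above the medians of their lists, so these medians do not depend on how large those changes are taken to be.

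**Figure D5:**
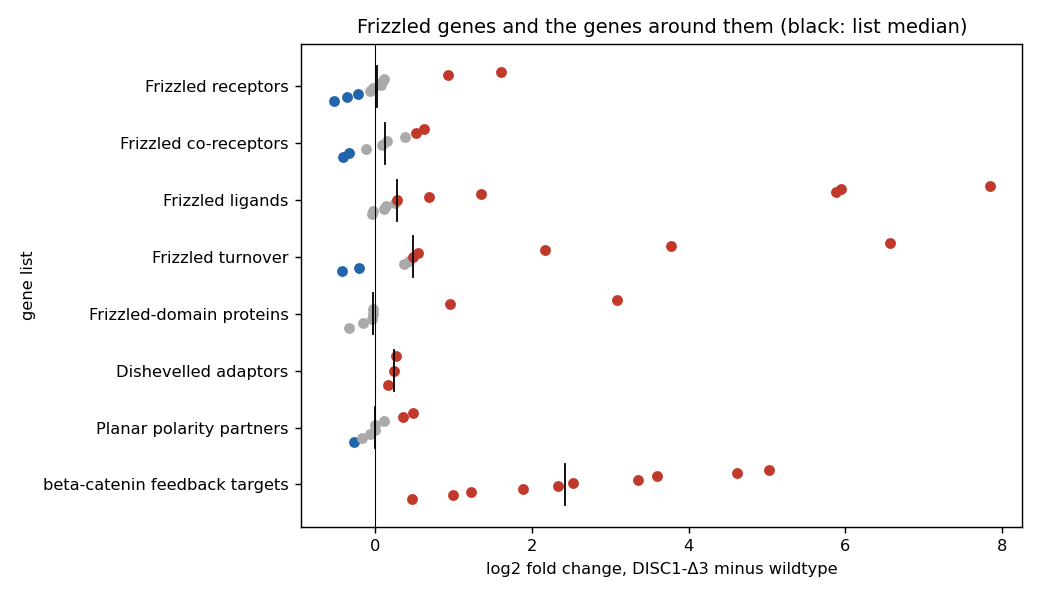
Log2 fold change, DISC1-Δ3 minus wildtype, of each tested gene in the Frizzled family and 7 lists around it (red higher, blue lower, grey not past the test; black bars are list medians). The family's largest change is 1.60, beside 5.95 for Wnt6; the fitted values of Wnt16, Rspo4 and Dkk1 rest on 2 or 3 wildtype reads and are not a measure of size.

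Markers of cell types moved with genotype beside these results. Over all genes tested, 20.4% were called higher and 19.5% lower. The RPKM sums leave out the TMM scaling that the calls use. All 8 microglia markers were lower, and their summed RPKM was 0.71 of the wildtype mean, with 0 markers at 0 in all libraries. Of 8 OPC markers 5 were higher and 1 lower, with a ratio of sums of 1.22. Of 6 pericyte markers 4 were higher (73.0 to 80.0 RPKM in wildtype and 98.5 to 101 RPKM in DISC1-Δ3 libraries) and of 8 endothelial markers 4 were higher (196 to 209 and 248 to 258 RPKM). Of 8 neuron markers 6 were higher (352 to 356 and 420 to 441 RPKM), and of 8 astrocyte markers 1 was higher and 6 lower (1965 to 2005 and 1888 to 1906 RPKM). Among oligodendrocyte markers, the 7 of the myelinating stage had 0 higher and 5 lower, and the 6 of committed precursors 2 higher and 3 lower. Bmp4 is counted as higher both among these precursor markers and among the feedback targets of β-catenin. Per 100 RPKM of the 8 OPC markers, Fzd10 was at 2.08 ± 0.15 and 5.47 ± 0.31, Fzd1 at 1.01 ± 0.060 and 1.67 ± 0.036, and Fzd4 at 0.40 ± 0.029 and 0.24 ± 0.031. The remaining members had lower means on this scale, with ratios from 0.68 (Fzd7) to 0.94 (Fzd6), not all beyond the spread. Olig1 alone held 252 of the 491 RPKM of the mean wildtype marker sum, so the scale depends strongly on that gene. The part of cell composition in the changes of Frizzled genes was not tested.

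Genes with the profiles most like those of the receptors with the largest rise and the largest fall were found by the distance between centred log2 depth-scaled counts over the 6 libraries. Nearest to Fzd10 were Cadps, Nptx1, Nog, Ccr7 and Fbln1, at distances of 0.16 to 0.23 on the log2 scale. Cadps acts in vesicle release, and its RPKM went from 2.84 to 9.24. Nog encodes the BMP antagonist Noggin and went from 2.61 to 7.84 RPKM, and Fbln1, an extracellular matrix gene, from 27.5 to 91.3 RPKM. Nearest to Fzd4 were Disc1, Cdk19, Kbtbd2, Shpk and Parp14, at distances of 0.10 to 0.15. Disc1 was the closest of them, with a log2 fold change of -0.45 beside -0.53 for Fzd4. Over 3 against 3 libraries, such distances depend on having a similar difference between the groups, and 2691 tested genes were called lower. Nearness therefore shows no link between the genes.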

How the data were processed

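RNA of immunopanned OPCs was sequenced as single-end 50-base reads. The submitters' processing notes name Bowtie2 2.2.5 and the build mm10; the counting tool and annotation are not given in the sources used here, and the study names DESeq2 for its comparison. The authors deposited an expected count and an RPKM (reads per kilobase of transcript, scaled by library total) for 18211 genes and 6 libraries; 90.2% of the counts above 0 are whole within 1e-06. The 4 columns of group averages were not used.

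Counts were rounded and tested with edgeR 4.0.16 (R 4.3.3, quasi-likelihood, TMM scaling, genotype as the only term) over the 13792 genes that reached an RPKM of 0.5 in 3 or more libraries. P-values are two-sided and Benjamini-Hochberg adjusted over these genes, with a threshold of 0.05. An exact permutation test of 3 against 3 libraries cannot go below p = 0.1. Reads carry no molecular identifiers, so counting intervals cover counting error only. Sequences came from GENCODE M21 and RefSeq, with coding bases aligned in Biopython 1.88. The edgeR, DESeq2 and limma fits were run on simulated counts with equal numbers of raised and lowered genes. That setting does not test the choice of scaling, and the sequence steps were not simulated.

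Alternatives were no filter, an RPKM filter of 1, median-of-ratios scaling, library totals, RPKM sums, DESeq2 1.42.0, limma 3.58.1 on log2(RPKM + 1) and log2(RPKM + 0.1), the replicate number as a block, and each library left out. The members, gene lists and tests were chosen with earlier results of these data known. Besides the 10 receptors, Disc1, Cspg4 and Smo, genes were named where they passed the test with one of the 4 largest changes of their list, exceeded 10 RPKM in a group mean, or were among the 5 profiles nearest to the receptor with the largest rise or fall.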

Additional observations from a re-analysis of the deposited data

How the results depend on the processing

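The calls of Fzd1, Fzd10, Fzd4 and Fzd7 held with their direction under all 15 alternatives. Between 4 and 5 Frizzled genes were called, with 2 higher under each alternative and 2 or 3 lower, while the calls over all genes ranged from 4342 to 6232 around 5498 and those in the 7 lists around the family from 31 to 39 around 35. Fzd2 was not called with library totals (-0.14), RPKM sums (-0.14), limma at a pseudocount of 1 (-0.13) or 0.1 (-0.14), or in 2 of the fits without 1 library (-0.30 to -0.18 over all 6). Among genes that were never called, the sign of Fzd3 changed with library totals (0.0098), RPKM sums (0.014) and limma (0.0042 and 0.0045 at the pseudocounts of 1 and 0.1). The sign of Fzd5 changed with library totals (0.059), RPKM sums (0.064), limma (0.031 and 0.043) and without wildtype replicate 2 (0.032) or DISC1-Δ3 replicate 2 (0.074), with -0.19 to 0.074 over the fits without 1 library, and that of Fzd9 without DISC1-Δ3 replicate 1 (-0.012, range -0.012 to 0.13). Of 41 called genes named beside the family, 34 kept their call and direction under every alternative that tested them, which were 14 for Dkk1 (not tested at an RPKM filter of 1) and 15 for the others; 7 lost the call under some, each with the same sign. Limma at a pseudocount of 1 gave changes over 1.5 times smaller for Disc1 (-0.29), Lgr4 (-0.26), Rnf43 (2.41), Rspo3 (1.37), Wnt10a (2.93) and Wnt5b (0.40). Among named genes that were not called, the sign changed with library totals, RPKM sums and limma at pseudocounts of 1 and 0.1 for Wnt7b (0.049, 0.052, 0.047 and 0.048), Sfrp1 (0.057, 0.061, 0.052 and 0.054), Smo (0.034, 0.038, 0.015 and 0.015) and Celsr2 (0.075, 0.079, 0.063 and 0.068); without 1 library the ranges were -0.081 to 0.036 for Wnt7b, -0.066 to 0.0013 for Sfrp1 and -0.051 to 0.013 for Celsr2. Library totals, RPKM sums and limma on RPKM leave out the TMM scaling, whose factors were 0.970 to 0.974 in wildtype and 1.02 to 1.04 in DISC1-Δ3 libraries; 69.1%, 69.96%, 69.2% and 69.2% of their calls over all genes were higher, against 51.1%, and the median log2 fold change over all genes was 0.090, 0.094, 0.075 and 0.087, against 0.0075. With the replicate number as a block, 5429 genes and the same number of Frizzled genes, 5, were called; libraries with the same number did not deviate together (correlations 0.044, 0.026 and -0.029 across genes), so the numbers do not pair them. Without DISC1-Δ3 replicate 3, 6232 genes and 5 Frizzled genes were called. With 239 to 326 reads per group for Fzd4, its size is the least precise of the 5 calls.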
